A study of Mus musculus with 6 samples.

Results

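Alternative splicing of 4677 events in 2700 genes was compared between primary mouse medullary thymic epithelial cells (mTECs) in which Setd2 had been knocked down and control cells that carried a hairpin against bacterial LacZ (Ctr). The quantity compared was the inclusion frequency of each event, a fraction from 0 (always skipped) to 1 (always included). Only genes with an equal number of events in each of the 4 libraries were compared, and their events were joined by gene symbol and by order within the gene. Of 2891 genes and 5000 events listed in any of the 4 libraries, 191 genes were left out on this rule, 7 of them listed in every library with differing numbers of events. Of the genes kept, 1689 had 1 event and 1011 had several, up to 15.

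The cells were mTECs from mouse thymus, grown on top of a fibrin gel seeded with human dermal fibroblasts, an organotypic culture that keeps mTECs alive outside the thymus. They were infected with lentiviruses carrying a short hairpin RNA and GFP in the pLKO.3G vector, and 5 days later the living infected cells were sorted as DAPI-, I-A/E+ (MHC class II) and GFP+. Ctr consisted of 2 libraries with the LacZ hairpin, and Setd2 knockdown of 2 libraries with a different hairpin each, sh1 and sh2. A further 2 libraries with hairpins against Raver2, an RNA-binding protein, served here only to estimate the spread of each event and for a direct comparison with Setd2 knockdown. Strain and animals are not named, nor is it said if separate cultures gave rise to them. The p-values thus reflect nothing beyond how these libraries spread, which in Ctr may be technical and under Setd2 knockdown includes that between hairpins. The stated purpose was to see how the knockdowns affect inclusion in genes that depend on Aire and in neutral genes.

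SETD2 is the enzyme that places the third methyl group on lysine 36 of histone H3 behind elongating RNA polymerase II, so the mark lies along the bodies of transcribed genes and is denser over exons than over introns. Proteins that read the mark include DNA methyltransferases and partners of splicing regulators and repair factors. Loss of the mark is known to change how some alternative exons are recognised. mTECs transcribe an unusually wide range of tissue-specific genes, many through Aire, and splice many of them into several isoforms.

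The tables name the gene of an event and not its exon. For 858 of the 1689 genes with 1 event (50.8%), exactly 1 exon is a cassette, present in some and skipped in other RefSeq-linked transcripts of the GENCODE M21 annotation (GRCm38, the same assembly as mm10). Of these exons 601 lie wholly in coding sequence, and 489 of them (81.4%) have a length that is a multiple of 3, with a median length of 93 nt. Among the 10 genes with 1 event that passed the test below and stayed away from the ends of the scale, 6 had exactly 1 such exon. These exons are the candidates that the annotation offers, and whether the measured event is that exon is not known here. The coding ones are shown because they let a reader see what an isoform change in these genes would add or remove. Each is given on the strand of its gene, 5′ to 3′, and each has a length that is a multiple of 3.
Adcyap1r1, chr6:55491227-55491310, plus strand, 84 nt: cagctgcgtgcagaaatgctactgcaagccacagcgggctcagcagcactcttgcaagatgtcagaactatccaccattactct
Evl, chr12:108683348-108683410, plus strand, 63 nt: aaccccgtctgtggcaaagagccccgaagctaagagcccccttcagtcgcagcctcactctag
Golim4, chr3:75902401-75902484, minus strand, 84 nt: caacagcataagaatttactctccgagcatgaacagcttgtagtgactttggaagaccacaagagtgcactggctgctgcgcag
Ncoa2, chr1:13164896-13165102, minus strand, 207 nt: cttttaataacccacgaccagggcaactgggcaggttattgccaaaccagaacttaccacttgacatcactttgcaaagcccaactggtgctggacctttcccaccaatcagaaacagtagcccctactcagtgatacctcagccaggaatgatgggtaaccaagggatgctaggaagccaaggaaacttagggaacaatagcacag
Nhsl1, chr10:18516029-18516160, plus strand, 132 nt: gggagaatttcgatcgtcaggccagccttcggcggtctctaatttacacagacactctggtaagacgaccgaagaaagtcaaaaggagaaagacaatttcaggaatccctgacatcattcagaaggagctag
The single annotated cassette exon of Mprip, 66 nt at chr11:59772152-59772217 on the plus strand, is not wholly coding and is located only.

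The libraries listed 4915 and 4949 events in Ctr and 4846 and 4777 under Setd2 knockdown. No read counts accompany the fractions, so the depth behind each value is unknown and no counting interval can be given. In 2575 of the 4677 events at least 1 of the 4 libraries had a fraction below 0.01 or above 0.99, and 2102 events, called mid-range here, had none. The targeted gene could not be checked, since Setd2 had no listed event and inclusion frequencies carry no expression level. Defining markers of cell types seldom had events: Aire and Cd74 among 10 thymic epithelial markers, Postn among 10 of fibroblasts, and Cd68, Cd8a, Lck and Ptprc among 10 of leukocytes, which gives no level of these transcripts.

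Inclusion moved in a limited set of events, in both directions. The test called 100 events in 83 genes (limma, Benjamini-Hochberg adjusted p under 0.05), which is 2.14% of those tested: 39 were higher under Setd2 knockdown (0.834%) and 61 lower (1.3%). In all 100 the fractions of the 2 groups did not overlap, which also held in 42.31% of all events. In 75 the nearest libraries of the 2 groups lay at least 0.1 apart, against 9.13% of all events. A call selects for such separation. The median size of a called change was 0.293, against 0.0415 over all events, and the smallest was 0.0112. Of the 100 called events 77 touched an end of the scale in some library, a share of 77.0% against 55.06% of all events, and 23 were mid-range, 12 higher and 11 lower in 21 genes. With only the 4 libraries compared in the fit, limma called 0 events; 557 were at an unadjusted p under 0.05, against 541 in the fit with all 6, and the smallest adjusted p was 0.0603. Every call below therefore rests on the spread that the Raver2 libraries help to estimate, and 283 events were called without Ctr library 1, 268 without Ctr library 2, 90 without sh1 and 136 without sh2, where the balance turned to 79 higher and 57 lower. Of the 100 events, 84 and 81 were still called without Ctr library 1 and 2, but 30 without sh1 and 39 without sh2.

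**Figure D1:**
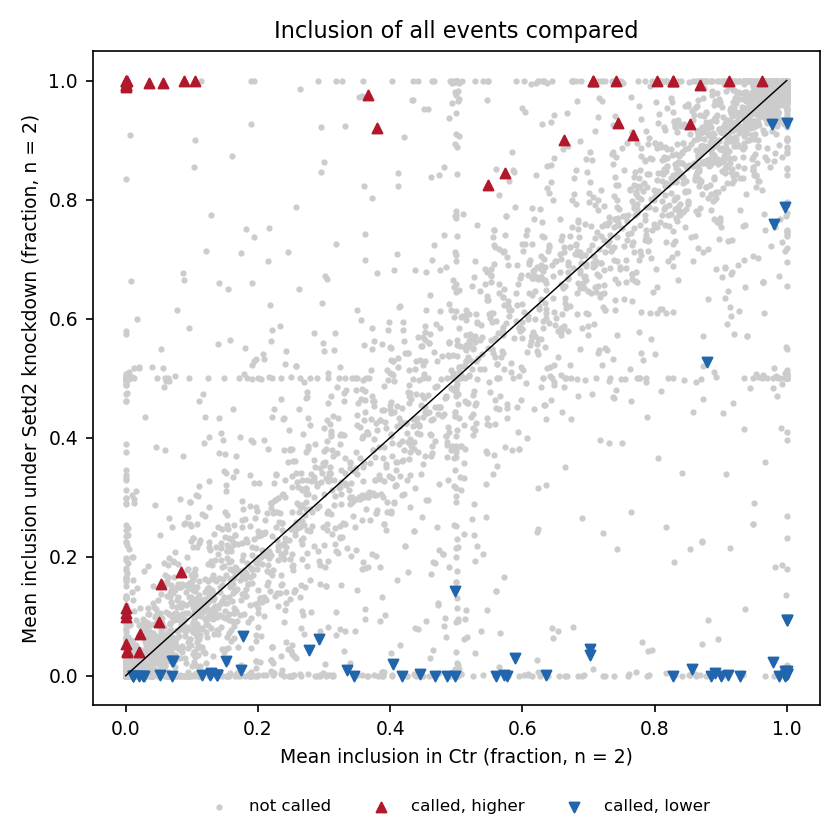
Mean inclusion of each of the 4677 events in Ctr (horizontal axis, fraction, n = 2) and under Setd2 knockdown (vertical axis, fraction, n = 2), with the diagonal marking equal inclusion. The 39 called higher events (red triangles) and 61 called lower events (blue triangles) lie mostly along the lower and upper edges, where the Setd2 mean is near 0 or 1.

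A wider set of events separated the groups without regard to the test. In 169 events (3.61%) both Setd2 libraries lay above both Ctr libraries by at least 0.1, and in 258 (5.52%) they lay below by as much. The excess of lower events came from events at the ends of the scale, with 101 higher and 179 lower, while the mid-range events were near balance with 68 higher and 79 lower. At a gap of at least 0.5 there were 26 higher and 73 lower events. Of the events separated by at least 0.1, 352 were not called.

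Mean inclusion over all events was 0.458 and 0.460 in the Ctr libraries and 0.448 and 0.441 in the Setd2 libraries. The groups did not overlap, with a difference of -0.0145 (exact permutation test of the 4 libraries, two-sided p = 0.33, the smallest that 6 assignments allow). The share of events below 0.01 or above 0.99 was 34.62% and 32.65% in Ctr and 35.88% and 38.91% under Setd2 knockdown, a difference of 3.76 percentage points (exact permutation p = 0.33). Over the mid-range events the mean inclusion differed by 0.00114 (exact permutation p = 0.667). The share below 0.01 was 20.72% and 19.97% in Ctr and 22.45% and 23.97% under Setd2 knockdown, and that above 0.99 was 13.9% and 12.68% against 13.43% and 14.95%. More events thus stood at the lower end in both Setd2 libraries, and at the upper end the groups overlapped. The part of this shift in the called events that end below 0.01 or above 0.99 was not tested.

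The spread within a group was nearly as wide as the distance between groups. The 2 Ctr libraries differed by over 0.1 in 27.82% of events and the 2 Setd2 libraries in 25.53%, against 31.3% to 32.69% for the pairs of a Ctr and a Setd2 library. For mid-range events the shares were 22.55% within each group and 27.4% to 29.64% between groups.

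The 12 called mid-range rises fell in genes of varied function. Evl encodes an Ena/VASP protein that promotes the growth of actin filaments. Its only event stood at 0.556 and 0.539 in the Ctr libraries and at 0.848 with sh1 and 0.80 with sh2, a rise of 0.277 ± 0.0241 (SE; limma, adjusted p = 0.0298). Either hairpin gave a higher fraction than either Ctr library. Nhsl1, which controls actin at the front of migrating cells, rose from 0.418 and 0.343 to 0.924 and 0.917 (adjusted p = 0.0167), the largest rise of a called mid-range event. Ncoa2 encodes a coactivator of nuclear receptors. It rose from 0.750 and 0.739 to 0.935 and 0.921, a rise of 0.183 ± 0.0158 (SE; adjusted p = 0.0290), and in both genes the libraries of a group lay much closer together than the groups did. Event 2 of Aplp2, a relative of the amyloid precursor protein, rose from 0.649 and 0.678 to 0.880 and 0.922 (adjusted p = 0.0451), a call that held in 2 of the 12 alternative analyses. Event 4 of Eif4a2, an RNA helicase of translation initiation, rose from 0.557 and 0.590 to 0.849 and 0.841 (adjusted p = 0.0253). These 5 were the largest rises among the called mid-range events.

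Smaller rises passed as well. Event 4 of Hdac7, a class IIa histone deacetylase, stood at 0.760 and 0.775 in Ctr and at 0.909 in both Setd2 libraries (adjusted p = 0.0496), which likewise held in 2 of 12 alternatives. Event 2 of Cyb561a3, a cytochrome of the lysosomal membrane, rose from 0.860 and 0.847 to 0.928 and 0.927 (adjusted p = 0.0321). In these genes the libraries of a group nearly coincided. The groups did not overlap, as in every called event. Pydc4, an interferon-inducible pyrin-domain gene, rose from 0.0874 and 0.0797 to 0.173 and 0.175 (adjusted p = 0.0384). Exosc5, a subunit of the RNA exosome, rose from 0.0534 and 0.0474 to 0.0920 and 0.0884 (adjusted p = 0.0402). Ranbp3, a cofactor of nuclear export, rose from 0.0210 and 0.0198 to 0.0391 and 0.0395 (adjusted p = 0.0176). In the last 3 the minor isoform gained share and stayed the minor one. The calls of Pydc4 and Exosc5 held in 3 of 12 alternatives each.

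Rnf41 encodes a ubiquitin ligase that limits growth factor receptors, and a pair of its 7 events moved in opposite directions by nearly the same amount. Event 2 rose from 0.0197 and 0.0221 to 0.0720 and 0.0684, by 0.0492 ± 0.00356 (SE; limma, adjusted p = 0.0218). Event 5 went from 0.979 and 0.976 to 0.925 and 0.928 and fell by 0.0511 (adjusted p = 0.0278). The values of the pair nearly add to 1 in each library, so they may report the same choice.

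Among the called mid-range falls, isoforms with a large share in Ctr came close to 0 in some genes and stayed partly included in others. Golim4, which sits in Golgi membranes and recycles to endosomes, went from 0.724 and 0.681 to 0.0420 and 0.0269, so that an isoform of most Ctr transcripts was nearly absent with both hairpins (adjusted p = 0.0186). Adcyap1r1 encodes the receptor for the neuropeptide PACAP. Its only event went from 0.371 and 0.437 to 0.0233 and 0.0148 and fell by 0.385 on the fraction scale, with an SE of 0.0255 (adjusted p = 0.0194). Sema6d is a transmembrane semaphorin that guides migrating cells and axons. Its event 3 went from 0.888 and 0.870 to 0.559 with sh1 and 0.495 with sh2 and fell by 0.352 (adjusted p = 0.0301). In Sema6d the falling isoform remained at an intermediate level with both hairpins, while in Golim4 and Adcyap1r1 it was nearly lost. Mprip, which ties myosin phosphatase to actin, went from 0.471 and 0.527 to 0.121 and 0.163 (adjusted p = 0.0496).

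Several isoforms that were minor in Ctr became rarer still. Event 1 of Sytl2, a Rab27 effector of vesicle transport, went from 0.313 and 0.272 to 0.0555 and 0.0662 (adjusted p = 0.0253). Event 1 of Picalm, a clathrin adaptor, went from 0.258 and 0.296 to 0.0530 and 0.0333 (adjusted p = 0.0273). Sat1, the acetyltransferase that starts the breakdown of spermidine and spermine, went from 0.183 and 0.172 to 0.0659 and 0.0670 (adjusted p = 0.0202). In each of these the minor isoform lost most of its share. Lrrfip1, a nucleic acid-binding protein, went from 0.158 and 0.145 to 0.0204 and 0.0280 (adjusted p = 0.00869, the smallest among the mid-range events). Sra1 makes both a regulatory RNA and a protein that act on steroid receptors. Its event 1 went from 0.0693 and 0.0727 to 0.0257 and 0.0232, and its event 2 had almost the same values (adjusted p = 0.0202 and 0.0186), so the pair may be 1 measurement.

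A fit of the mid-range events by themselves called 8, 1 higher and 7 lower: Nhsl1, Golim4, Adcyap1r1, Mprip, Lrrfip1, Picalm, Sytl2 and event 2 of Sema3b. With sh1 left out, of the 22 events plotted Sema6d was the only one still called, and with sh2 left out Sema6d, Evl, Lrrfip1 and Ranbp3 were.

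**Figure D2:**
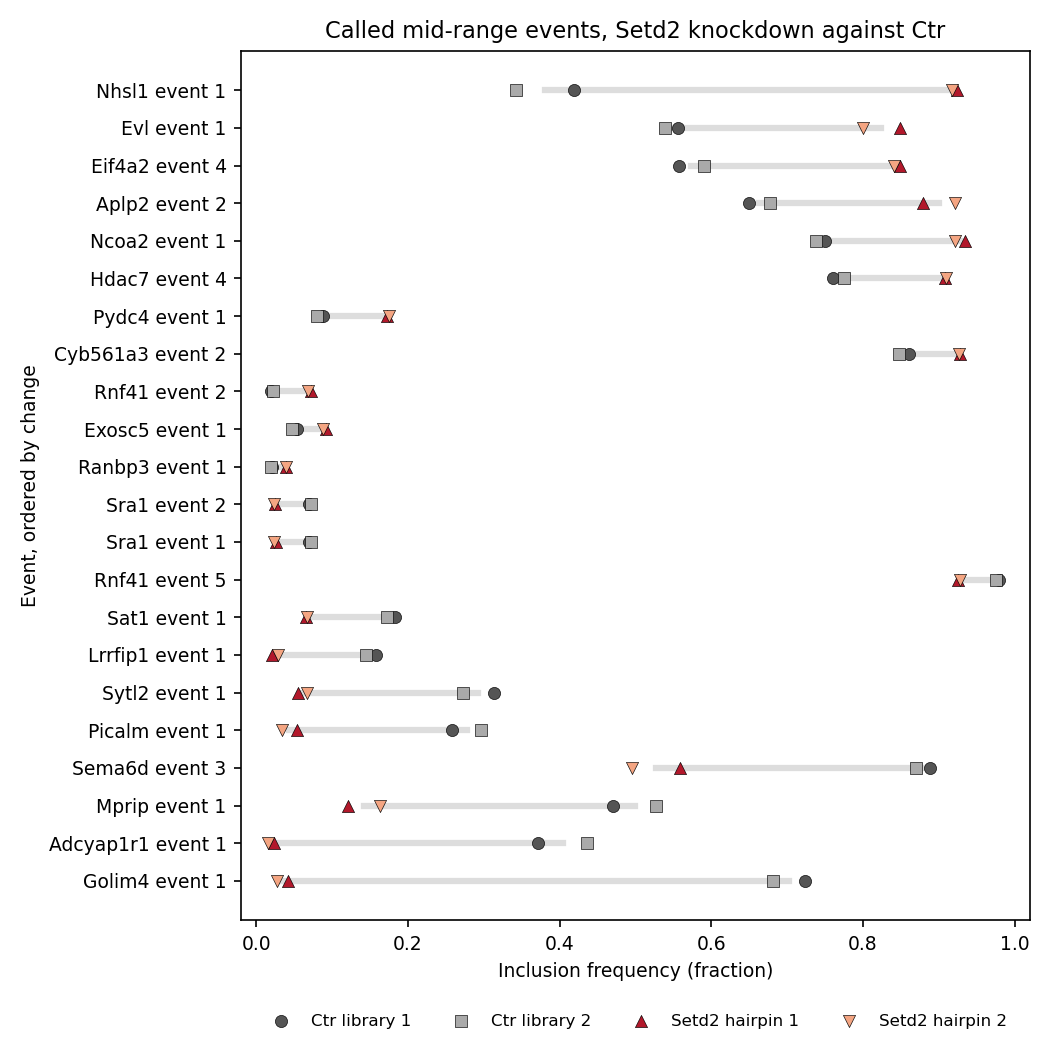
Inclusion frequency (horizontal axis, fraction) of 22 of the 23 called mid-range events in each of the 4 libraries, ordered by the change under Setd2 knockdown; grey circles and squares are Ctr libraries, red and orange triangles the Setd2 hairpins, and the grey bar joins the group means. In all 22 the Setd2 symbols lie to the same side of both Ctr symbols, as they do in 45.0% of all mid-range events. Nhsl1 is the largest rise (0.540) and Golim4 the largest fall (-0.668).

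Other mid-range events were separated as widely and did not pass. Event 2 of Pkib, an inhibitor of protein kinase A, had 0.0239 and 0.0359 in Ctr and 0.461 and 0.408 under Setd2 knockdown (adjusted p = 0.0877). Shroom1, a protein of the actin cytoskeleton, had 0.285 and 0.352 against 0.705 and 0.745, and an adjusted p of 0.538; its Raver2 libraries, which enter the spread, stood above 0.99 and at 0.531. Snrk, a kinase of the AMPK family, had 0.714 and 0.718 against 0.981 and 0.962 (adjusted p = 0.387). The events in this paragraph were named for the width of the gap between the groups, so their separation is the rule and not a finding. Groups did not overlap in 45.0% of mid-range events. Event 4 of 1600012H06Rik had 0.220 and 0.175 against 0.540 and 0.525 (adjusted p = 0.106). On the lower side, event 2 of Sema3b, a secreted semaphorin, had 0.917 and 0.790 against 0.261 and 0.166 (adjusted p = 0.0534), and event 2 of Fbrsl1 had 0.959 and 0.922 against 0.605 and 0.536 (adjusted p = 0.0501). Pias3, a SUMO ligase and inhibitor of STAT3, had 0.538 and 0.541 against 0.185 and 0.223 (adjusted p = 0.290). Event 2 of Cabyr, a calcium-binding protein of sperm, had 0.978 and 0.681 against 0.235 and 0.146 (adjusted p = 0.159), and event 2 of Rarb, a retinoic acid receptor, had 0.726 and 0.886 against 0.428 and 0.302 (adjusted p = 0.202). For the last 2 the Ctr libraries themselves lay well apart.

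Most called events ended with a Setd2 mean below 0.01 or above 0.99. By group means, 31 called events went from partly included to below 0.01 and 13 from partly included to above 0.99. Partly included here means from 0.01 to 0.99. Of all 4677 events, 340 and 201 made these moves. A further 8 called events went from above 0.99 to below 0.01 and 6 the opposite way, of 10 and 9 such events in all. An unknown number of reads stands behind each fraction of 0 or 1.

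Genes of the actin and membrane skeleton held 11 called events in 8 genes of the 104 events compared in that list, 6 higher and 5 lower, or 10.6% against 2.14% of all events. The median size of change was 0.0942 over the list and 0.0415 over all events. Of the 104 events only 31 were mid-range, against 2102 of all 4677, and most calls touched an end of the scale. Fnbp1, an F-BAR protein that bends membranes, had 0.453 and 0.484 for event 2 in Ctr and below 0.01 in both Setd2 libraries (adjusted p = 0.00578). An isoform with a large share in Ctr was thus nearly lost with both hairpins. Event 6 of Pdlim5, a PDZ and LIM protein of actin fibres, rose from 0.855 and 0.883 to 0.991 and 0.993 (adjusted p = 0.0383). Event 4 of Pak3, a kinase downstream of Rac and Cdc42, rose from 0.105 and 0.00880 to above 0.99 in both (adjusted p = 0.00703). Evl, Nhsl1 and Mprip, described above, belong to the same list.

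Ank1, the ankyrin that holds spectrin to the membrane of red cells, gave 4 of the calls in this list, out of 11 events. Event 1 stood above 0.99 in both Ctr libraries and below 0.01 with both hairpins (adjusted p = 0.00244). Event 5 stood at 0.814 and 0.842 in Ctr and below 0.01 with both hairpins, whereas events 6 and 10, which held the same values as each other, rose from 0.814 and 0.842 to above 0.99 (adjusted p = 0.0176). Other events of the gene jumped between the hairpins: event 9, at 0.814 and 0.842 in Ctr, was below 0.01 with sh1 and above 0.99 with sh2. Event 9 was picked after its values were seen. Events of the same gene may share transcripts, so these values may not be separate pieces of evidence. Of the other members that were named by the rule and did not pass, Add3, an adducin that caps actin, had 0.247 and 0.237 in Ctr against 0.536 and 0.554 (adjusted p = 0.115).

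Extracellular matrix genes and their integrins had 6 called events in 3 genes of 38 compared, 1 higher and 5 lower (15.8% against 2.14%). Of the 38 events only 11 were mid-range, against 2102 of all 4677. Serpinh1, the chaperone that folds procollagen, accounted for 4 of them. Its event 4 stood at 0.603 and 0.550 in Ctr and below 0.01 with both hairpins (adjusted p = 0.00621), and events 1 to 3 went from fractions of 0.0187 to 0.0796 in Ctr to below 0.01. All 4 of its events thus ended below 0.01. Event 2 of Fn1, fibronectin, had 0.135 and 0.120 in Ctr and 0.00278 and 0.000852 under Setd2 knockdown (adjusted p = 0.00815). The single higher call was Scube1, a secreted EGF-domain protein, at below 0.01 in Ctr and 0.0497 and 0.0565 under Setd2 knockdown (adjusted p = 0.00977). The integrin subunit Itga6, whose cytoplasmic tail is spliced differently in epithelia and mesenchyme, had 0.706 and 0.773 against 0.956 and 0.924 without passing (adjusted p = 0.0877).

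Fibroblast genes were few, with 7 events compared in 3 genes, and 5 of them were called, all lower (71.4%, against 2.14% of all events called and 1.3% called lower). These were the 4 events of Serpinh1 and the event of Prrx1, a homeobox factor of mesenchyme, at 0.325 and 0.345 in Ctr and 0.0128 and 0.00721 under Setd2 knockdown (adjusted p = 0.00512). Event 2 of Postn, periostin, had 0.0684 and 0.0657 in Ctr and below 0.01 in both Setd2 libraries, and did not pass (adjusted p = 0.150). The cultures held human dermal fibroblasts beside the mTECs, cells that the sort for I-A/E+ and GFP+ is meant to remove. The fractions give no expression level for any fibroblast marker, and the part of fibroblast transcripts in these values was not tested.

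Cell contact and polarity genes had switches in both directions. Among epithelial adhesion genes and keratins 1 event was higher and 2 were lower of 35 compared (8.57%, against 2.14% of all events). Lin7a, a scaffold of epithelial polarity, rose from 0.0440 and 0.0271 to above 0.99 in event 1 (adjusted p = 0.00244) and went from above 0.99 to 0.00219 and 0.00515 in event 2. These are near complements. Dlg5, a membrane scaffold of cell junctions, went from above 0.99 in both Ctr libraries to 0.00580 and 0.00893 (adjusted p = 0.00609). Genes of synaptic and neural adhesion had 2 higher and 4 lower calls among 85 events (7.06%, against the same 2.14%). Event 2 of Lrrc4c, a netrin-G ligand, fell from above 0.99 to below 0.01, and event 3 of Slit2, a guidance ligand, fell from above 0.99 and 0.959 to 0.0162 and 0.0282 (adjusted p = 0.00772). Ppfibp1, a liprin, went from 0.639 and 0.541 to 0.0585 with sh1 and below 0.01 with sh2 (adjusted p = 0.0253). Ncam1, a neural cell adhesion molecule, rose from below 0.01 to 0.102 and 0.0939. Aplp2 and Sema6d, described above, are the other 2 members called. Nfasc, an ankyrin-binding adhesion molecule outside the list, rose in event 2 from 0.443 and 0.290 to above 0.99 with sh1 and 0.950 with sh2 and went from 0.421 and 0.551 to below 0.01 in event 3 (adjusted p = 0.0402 and 0.0411). Both Nfasc events were picked after their values were seen.

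Golgi, endocytosis and vesicle trafficking genes had no higher call and 3 lower calls among 73 events (4.11%, against 2.14% of all events), and these are the mid-range events of Golim4, Picalm and Sytl2. The median change of the list was near 0, and its median size was 0.0390 against 0.0415 over all events. Both Setd2 libraries lay above Ctr by at least 0.1 in 2 of its events and below in 6, beside 3.61% and 5.52% of all events.

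T cell and leukocyte genes had 4 higher and no lower calls among 53 events (7.55%, against 2.14% of all events called and 0.834% called higher), each from near 0. From that start a call can only be higher, so the direction of these 4 is no finding. Fcrl5, a receptor of B cells, went from below 0.01 to 0.985 and 0.993, and Clec4b1, a lectin of dendritic cells, from below 0.01 to above 0.99 (adjusted p = 0.00244 and 0.00710). Event 3 of Cd209b, a lectin of marginal zone macrophages, went from below 0.01 to above 0.99 (adjusted p = 0.00772). Event 2 of Tlr7, a sensor of RNA in endosomes, rose to 0.0440 and 0.0390 (adjusted p = 0.0138). Events of 4 of 10 leukocyte markers were listed, 5 events in all, and none of these was called. How much RNA of leukocytes the sorted cells held is not measured by inclusion frequencies, and its part in these 4 rises was not tested.

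Aire, the transcription regulator that drives tissue antigens in mTECs, had 9 events. Its event 2 rose from below 0.01 to 0.118 and 0.110, and its event 3 went from above 0.99 to 0.925 and 0.933 (adjusted p = 0.0253 and 0.0192). Event 1 stood just outside the threshold, with below 0.01 in Ctr and 0.0846 and 0.0677 under Setd2 knockdown (adjusted p = 0.0501). Under Raver2 knockdown these events lay further from Ctr, with means of 0.115 for event 1, 0.179 for event 2 and 0.891 for event 3. No difference between the knockdowns passed for them (limma, adjusted p from 0.147 to 0.476). Event 7 stood above 0.99 in 1 library of each group and below 0.01 in the other. Whether row order joined the same Aire event in every library was not tested. Among 16 events of tissue antigens known to depend on Aire, 1 was higher (Kng2, a kininogen, from below 0.01 to above 0.99) and 1 lower (Gucy2c, the receptor of guanylin in the gut, from above 0.99 to below 0.01), or 12.5% against 2.14% of all events. The median size of change in that list was 0.292 against 0.0415 over all events, and all of its 16 events touched an end of the scale. Aire held both calls among the 32 events of thymic epithelial regulators (6.25%, against 2.14%). Genes of antigen presentation on MHC had 7 events, with no call and none at an unadjusted p under 0.05 in limma, beside 541 of all 4677 events. So short a list may hold none. Event 1 of Cd74, the invariant chain, had 0.139 and 0.109 against 0.103 and 0.0960 (adjusted p = 0.597).

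Among genes in none of the lists, Ebf3, a transcription factor, had 0.127 and 0.130 in event 1 and 0.127 and 0.105 in event 2 in Ctr, and all 4 fractions under Setd2 knockdown were below 0.01 (adjusted p = 0.00244 and 0.0213). Event 4 of Sox17, a transcription factor of endoderm and vessels, had 0.0506 and 0.0540 in Ctr and below 0.01 with both hairpins (adjusted p = 0.00749). In the other direction Egr3, an immediate early zinc finger factor, rose from below 0.01 to 0.116 and 0.0939 (adjusted p = 0.0253). Event 2 of Ebf3, Sox17 and Egr3 were picked after their values were seen.

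Other genes switched completely or in part. Sphk1, which makes sphingosine 1-phosphate, and Atp6v1c2, a subunit of the proton pump of vesicles, went from above 0.99 to below 0.01. Event 1 of Kcnj15, a potassium channel, went from 0.991 and 0.833 to below 0.01, and event 5 went from 0.00955 and 0.168 to above 0.99 (adjusted p = 0.0230 and 0.0195). Event 2 of Cflar, an inhibitor of caspase-8, fell less, from above 0.99 to 0.763 and 0.812 (adjusted p = 0.0392). It was the only call among 46 events of apoptosis and DNA repair (2.17%, near the 2.14% of all events). Dusp16, a phosphatase of JNK, rose from 0.735 and 0.748 to above 0.99 in both libraries (adjusted p = 0.00609). Event 3 of Dab2ip, a Ras GTPase-activating protein, went from above 0.99 to 0.0837 and 0.105. Nf2, which encodes merlin, had 0.162 and 0.187 in Ctr and 0.000149 and 0.0200 under Setd2 knockdown (adjusted p = 0.0278). Kcnj15, Dab2ip and Nf2 were picked after their values were seen.

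**Figure D3:**
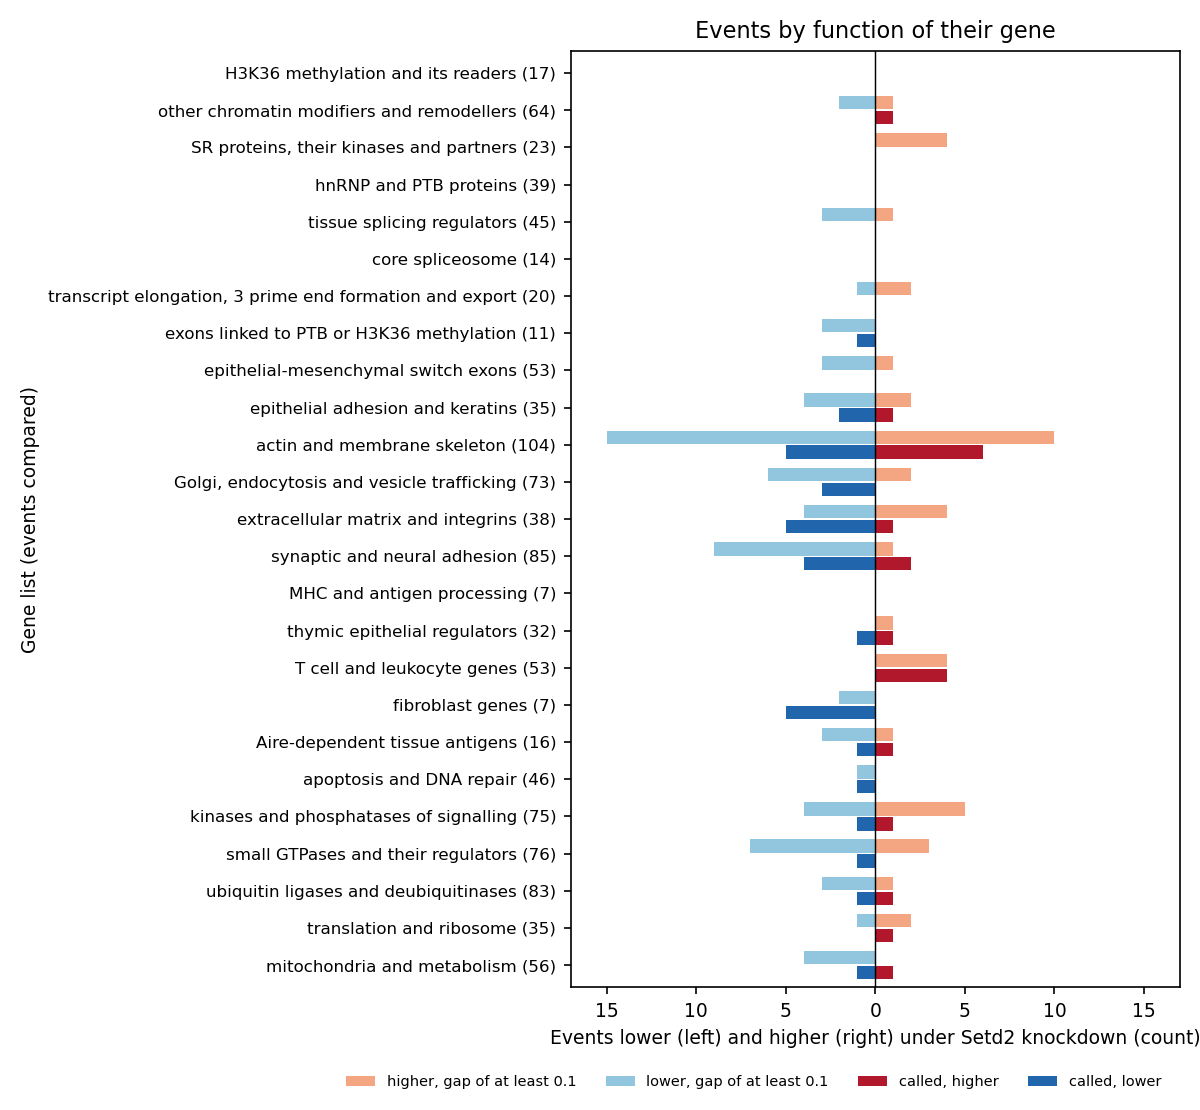
Number of events per gene list that were called lower (dark blue, left) or higher (dark red, right), and number separated by at least 0.1 between the nearest libraries of the groups (light bars), with the events compared per list in brackets. By count the actin and membrane skeleton list, the largest with 104 events, has the most of either kind. Of its events 11 were called (10.6%, against 2.14% of all events), and 10 lay higher and 15 lower by the gap (24.0% against 9.13%). The share called was larger in the fibroblast (71.4%), extracellular matrix (15.8%) and Aire-dependent antigen (12.5%) lists. The H3K36, hnRNP, core spliceosome and MHC lists, with 17, 39, 14 and 7 events, have none of either kind.

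The methylation pathway itself had few events. Of 40 genes that write, erase or read lysine 36 methylation on histone H3, 10 had events, and none of their 17 events was called or separated by 0.1. At the 2.14% called and 9.13% separated over all events, a list of this size may hold none or few. An unadjusted p under 0.05 in limma was seen in 1 of them, beside 541 of all 4677 events. Their median size of change was 0.0309, against 0.0415 over all events. Zmynd11, a reader of the mark on histone H3.3, had 0.767 and 0.791 in Ctr against 0.697 and 0.716 (adjusted p = 0.370). Event 1 of Dnmt3b, the DNA methyltransferase recruited by the mark, had 0.199 and 0.184 against 0.199 and 0.113, and event 2 had 0.337 and 0.302 against 0.408 and 0.563, where the hairpins themselves lay far apart (adjusted p = 0.759 and 0.559). Morf4l1, whose protein ties the mark to splicing through PTB, had 0.132 and 0.0827 against 0.0690 and 0.0247 (adjusted p = 0.586). Glyr1, Mbd5, event 1 of Mtf2, event 1 of Brpf1 and event 2 of Morf4l2 had adjusted p from 0.663 to 1. Other chromatin modifiers and remodellers had 1 call, Hdac7, among 64 events (1.56%).

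The lists of splicing factors had no called event, but with 2.14% of all events called, lists of this size may well hold none. None of 23 events of SR proteins, their kinases and partners passed in limma. Of these, 5 had an unadjusted p under 0.05, beside 541 of all 4677 events. By the gap, 4 lay above Ctr by at least 0.1 with none below (17.4% against 9.13% of all events). Srsf1, an SR protein that promotes exon inclusion, had 0.135 and 0.103 in Ctr and 0.376 and 0.405 under Setd2 knockdown, a difference of 0.272 ± 0.0397 (SE; adjusted p = 0.0938). Clk1, a kinase of SR proteins, had 0.598 and 0.639 against 0.751 and 0.785 in event 1, and 0.0532 and 0.0799 against 0.124 and 0.139 in event 2 (adjusted p = 0.220 and 0.178). Luc7l, a partner of the U1 particle, had 0.243 and 0.354 against 0.554 and 0.563 in event 2 (adjusted p = 0.258) and 0.396 and 0.568 against 0.749 and 0.733 in event 3 (adjusted p = 0.328). Event 1 of Clk1 and event 3 of Luc7l were picked after their values were seen. The groups did not overlap in any of these 5 events, which also held in 42.31% of all events, and none passed.

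None of 39 events of hnRNP and PTB proteins was called or separated by 0.1, beside 2.14% and 9.13% of all events. An unadjusted p under 0.05 in limma was seen in 3 of them, beside 541 of all 4677 events. Event 2 of Hnrnpa2b1 had 0.789 and 0.791 against 0.718 and 0.708 (adjusted p = 0.156), event 2 of Hnrnpc had 0.817 and 0.805 against 0.779 and 0.767 (adjusted p = 0.361), and event 1 of Ptbp1 had 0.307 and 0.303 against 0.231 and 0.259 (adjusted p = 0.614). Each of these lay below both Ctr libraries by under 0.1. Of 14 events of the core spliceosome none was called and none had an unadjusted p under 0.05. The largest there by the naming rule was Puf60, a U2 auxiliary factor, at 0.211 and 0.183 against 0.270 and 0.296 (adjusted p = 0.432). Tissue-specific splicing regulators had 45 events, none of them called and 2 with an unadjusted p under 0.05.

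Factors of transcript elongation, 3 prime end formation and export had no call among 20 events, beside 2.14% of all events. An unadjusted p under 0.05 in limma was seen in 3, beside 541 of all 4677. Nxf1, the mRNA export receptor, had 0.142 and 0.162 against 0.315 and 0.325 (adjusted p = 0.136). Nelfe, a subunit of the factor that pauses RNA polymerase II, had 0.254 and 0.224 against 0.456 and 0.409 (adjusted p = 0.296). Cpsf7, a subunit of cleavage factor I, had 0.998 and 0.843 against 0.499 and 0.651 (adjusted p = 0.267). The groups did not overlap in any of the 3, which also held in 42.31% of all events.

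Genes with exons linked in earlier work to PTB or to methylation of lysine 36 had 1 call in 11 events (9.09%, against 2.14% of all events). Whether any of these events is a linked exon is not known. The call was event 2 of Fn1, and 3 events lay below Ctr by at least 0.1 with none above (27.3% against 9.13%). With so few events a single call sets that share. Pkp4, a plakophilin of cell junctions, had 0.480 and 0.544 against 0.358 and 0.357 (adjusted p = 0.406). Cttn, cortactin, had 0.680 and 0.672 in Ctr, below 0.01 with sh1 and 0.165 with sh2 (adjusted p = 0.283). Tpm3, a tropomyosin, had 0.205 and 0.274 against 0.391 and 0.368 (adjusted p = 0.465). The median change of the list was -0.0546 and its median size 0.126. Genes with exons that switch between epithelial and mesenchymal states had no call among 53 events, which may not be those exons. An unadjusted p under 0.05 in limma was seen in 6 of them, beside 541 of all 4677 events. Event 2 of Spag9, a scaffold of JNK signalling, had the values 0.577 and 0.476 against 0.239 and 0.235 (adjusted p = 0.215).

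The lists of signalling and housekeeping genes held few calls. Kinases and phosphatases had 1 higher (Dusp16) and 1 lower (Sphk1) among 75 events (2.67%), ubiquitin ligases and deubiquitinases the pair of Rnf41 among 83 (2.41%), translation and ribosome genes Eif4a2 among 35 (2.86%), and small GTPases and their regulators Arhgef10l among 76 (1.32%). These shares are near the 2.14% of all events. Event 2 of Tsc2, the brake on mTOR, had 0.157 and 0.161 against 0.0691 and 0.0833 (adjusted p = 0.0824), and event 3 of Tnip1, an inhibitor of NF-kB signalling, had 0.716 and 0.758 against 0.848 and 0.872 (adjusted p = 0.122).

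The 2 hairpins were set against each other by subtracting a different Ctr library from each, so that no library was shared. Both hairpins moved by at least 0.1 in 879 events with sh1 against Ctr library 1 and sh2 against Ctr library 2, and in 846 with the Ctr libraries exchanged. They moved the same way in 59.5% and 61.82% of these. Among events in which both moved by at least 0.5 there were 149 and 144, with the same direction in 72.48% and 72.22%, and 79 and 76 of them were lower with both hairpins against 29 and 28 higher. For mid-range events the same direction was seen in 63.08% and 67.1% of 325 and 307 events at 0.1, and in 77.65% and 70.0% of 85 and 80 events at 0.2. At 0.5 only 6 and 5 mid-range events were left, with 83.33% and 60.0%, and at 0.05 the shares were 60.49% and 62.47% for all events and 63.87% and 67.29% for mid-range events. Agreement between hairpins was thus partial. For all events it was higher at 0.5 than at 0.1 in both arrangements, but it did not rise at every step of size.

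**Figure D4:**
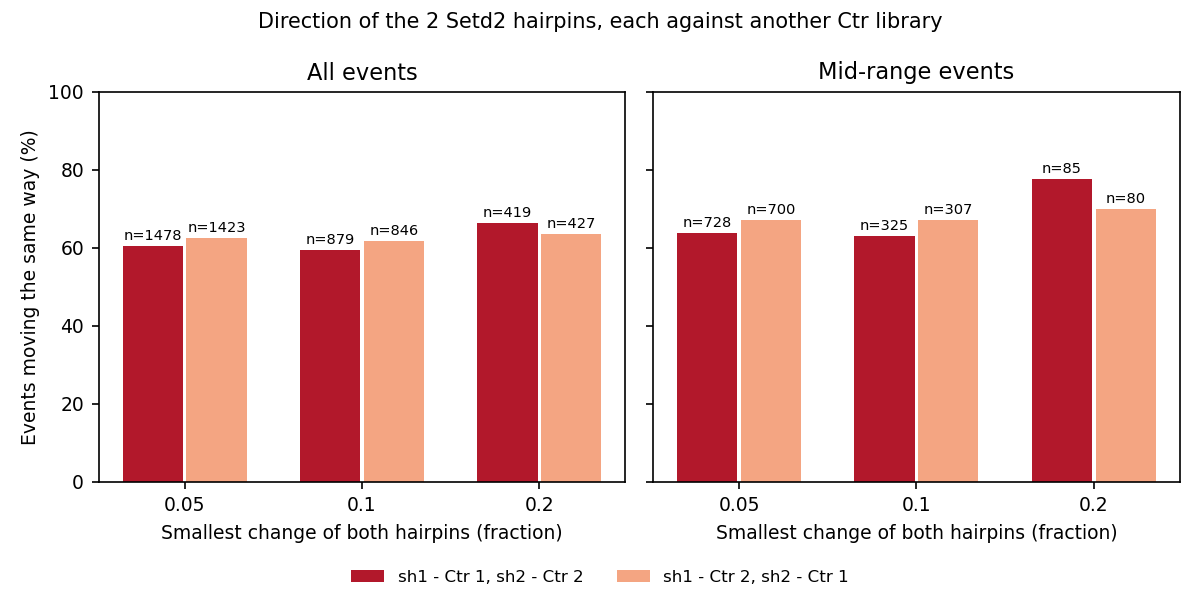
Share of events in which both Setd2 hairpins moved the same way (vertical axis, percent), among events in which both moved by at least the size on the horizontal axis (fraction), for all events (left) and mid-range events (right); the 2 colours are the 2 ways to give each hairpin its own Ctr library, and n is the number of events. The share for mid-range events is 63.08% and 67.1% at 0.1 and 77.65% and 70.0% at 0.2.

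Some events stood apart with 1 hairpin only. Of 2102 mid-range events, the hairpins differed by over 0.1 in 474 and the Ctr libraries likewise in 474, with 193 in common. Differences over 0.3 were seen between the hairpins in 87 events and between the Ctr libraries in 54. Where the Ctr libraries lay within 0.05 of each other, which held for 1197 events, the hairpins differed by over 0.1 in 171, and in 235 they lay on opposite sides of both Ctr libraries. Event 5 of Inca1, an inhibitor of cyclin A1 complexes, had 0.0450 and 0.0336 in Ctr, 0.989 with sh1 and 0.0484 with sh2. Event 2 of Eef1d, a translation elongation factor subunit, had 0.207 and 0.182 in Ctr, 0.0994 with sh1 and 0.957 with sh2. Event 4 of Tbc1d24, a Rab regulator, had 0.684 and 0.695 in Ctr, 0.944 with sh1 and 0.442 with sh2. These events were picked for close Ctr libraries and a wide difference between the hairpins, so that pattern is the rule itself. The Raver2 libraries also lay far apart in event 5 of Inca1 (0.0318 and 1) and event 2 of Eef1d (0.0799 and 0.982). They were closer in event 4 of Tbc1d24 (0.834 and 0.646). Fbln2, an extracellular matrix protein, had 0.797 and 0.780 in Ctr, 0.683 with sh1 and 0.186 with sh2. Col6a3, a collagen VI chain, had 0.0858 and 0.0683 in Ctr, 0.875 with sh1 and 0.353 with sh2, so that both lay above Ctr but over 0.5 apart.

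The typical change was near 0 whatever inclusion an event started from. Events were classed by 1 Ctr library and compared with the other, so that the class did not use the baseline. In each of 5 classes, from below 0.1 to above 0.9, the median change under Setd2 knockdown was between -0.00539 and 0.00278 in either arrangement of the Ctr libraries. In the classes from 0.1 to 0.9, the share of events that remained partly included was lower with both hairpins. Of 917 events at 0.3 to 0.7 in Ctr library 1, 89.86% lay between 0.01 and 0.99 in Ctr library 2, against 83.75% with sh1 and 83.21% with sh2. Of 956 events at 0.3 to 0.7 in Ctr library 2, 91.0% lay there in Ctr library 1, 84.31% with sh1 and 82.85% with sh2. Both hairpins were thus below the other Ctr library in the middle class, and in the classes from 0.1 to 0.3 and from 0.7 to 0.9 as well. The outer classes did not follow throughout. Above 0.9 in Ctr library 2, the share was 49.45% in Ctr library 1, 52.37% with sh1 and 46.99% with sh2. Below 0.1 in Ctr library 2, it was 43.21%, 43.14% and 41.01% in the same order. In the middle class the events that left went to both ends, with 5.78% below 0.01 in Ctr library 2, 8.83% with sh1 and 9.60% with sh2, and with 4.36%, 7.415% and 7.20% above 0.99. This difference was not tested, and an exact permutation of 2 against 2 libraries cannot give a p below 0.33. The depth of each library, which could move such shares, is unknown.

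**Figure D5:**
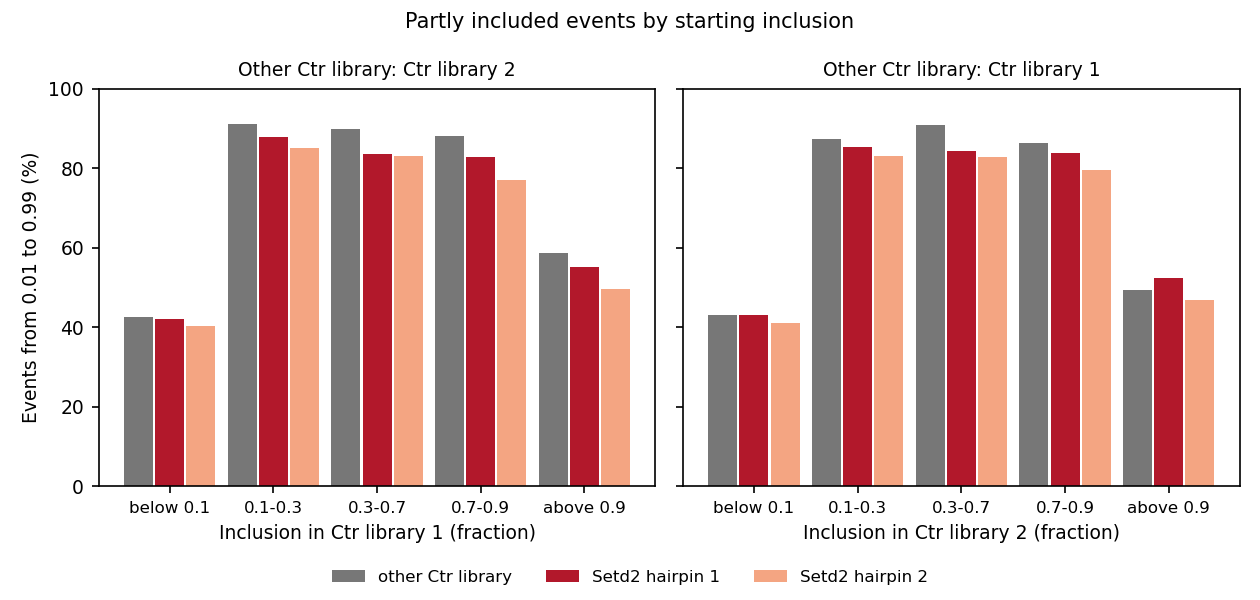
Share of events with an inclusion between 0.01 and 0.99 (vertical axis, percent) in the other Ctr library (grey) and with each Setd2 hairpin (red, orange), for events classed by their inclusion in Ctr library 1 (left) or Ctr library 2 (right). In the class from 0.3 to 0.7 the share is 89.86% and 91.0% in the other Ctr library and 82.85% to 84.31% with the hairpins.

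Calls were made at every starting level. Of 1286 events with a Ctr mean below 0.1, 31 were called (2.41%), 21 higher and 10 lower. Of 948 with a Ctr mean above 0.9, 21 were called (2.22%), 2 higher and 19 lower. In between, 12 of 676 events at 0.1 to 0.3 were called, 1 higher and 11 lower, 19 of 1152 at 0.3 to 0.7, 5 higher and 14 lower, and 17 of 615 at 0.7 to 0.9, 10 higher and 7 lower. The 11 lower calls at 0.1 to 0.3 include Lrrfip1, Picalm, Sytl2, Sat1, Fn1 and both Ebf3 events, and 6 of the 12 calls in this class ended below 0.01. Here the Ctr mean set the class and entered the change, so these counts are a description.

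The median length of the gene body was 63582 bp for the 82 genes with a called event that have a position in GENCODE M21, against 31889 bp for 2612 of the genes compared, and 57049 bp for 20 genes with a called mid-range event. Genes with a called event had a median of 2 events against 1 over all, and a gene with more events has more chances of a call. Neither relation was tested.

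Setd2 and Raver2 knockdown were compared directly to ask whether a change was particular to Setd2. Of 4676 events, 35 differed (limma, 0.749%), 15 of them higher under Setd2 knockdown, and 12 of the 100 events called against Ctr were among them. Ranbp3 was the only mid-range event of these, with 0.0393 under Setd2 knockdown and 0.0226 under Raver2 knockdown (adjusted p = 0.0360 between the knockdowns), while Ctr stood at 0.0204. Rnf41 event 2 had 0.0702, 0.0266 and 0.0209 in the same order and lay just outside (adjusted p = 0.0502). For Evl, Adcyap1r1, Sema6d, Aplp2, Sat1, Hdac7 and Cyb561a3 no difference between the knockdowns passed, with adjusted p from 0.580 to 1. This does not show that they are equal. The Setd2 and Raver2 means were 0.824 and 0.825 for Evl, 0.928 and 0.929 for Cyb561a3, and 0.527 and 0.648 for Sema6d. In the same order, Fcrl5 had 0.989 and 0.987, event 1 of Lin7a 0.996 and 0.998, and Srsf1 0.391 and 0.384. Nxf1 had 0.3201 and 0.3272. Both means were above 0.99 for Kng2 and below 0.01 for event 2 of Fn1 and the 4 events of Serpinh1. Prrx1 had a Raver2 mean of 0.00880. No difference passed for these events either. The comparisons of both knockdowns with Ctr share the Ctr libraries, so a deviation of those would appear in each.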

How the data were processed

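Per the labels' protocols, cDNA came from low-input SMART-seq amplification of total RNA and libraries from transposase tagging. The deposited values are fractions from 0 to 1, computed by the authors as the inclusion frequency of each alternative splicing event. The build mm10 and the tools Trimmomatic 0.39, TopHat2 and Cufflinks stand in the submitters' processing notes, with no role or setting. The formula for inclusion and any coverage filter are not given in these sources, and thin coverage can push a fraction to 0 or 1.

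Events were joined by gene symbol and row order within the gene, which assumes the same order in every table. Of the 4677 events, 163 repeated the values of an earlier event of their gene and 172 were its complement; they were kept, and merged in an alternative. The test was limma 3.58.1 in R 4.3.3 on the fractions, with group means fitted over all 6 libraries, a variance trend in the empirical Bayes step and a two-sided contrast, with Benjamini-Hochberg adjustment over 4677 events and a threshold of 0.05. For 19 events a Raver2 library had no value and the fit used the rest. Library summaries were compared by exact permutation of the 4 libraries. The fit was also run on simulated data, with changes placed only in events of middling inclusion and small spread. That run does not bear on calls at the ends of the scale. Tables were handled with Python 3.11.15, pandas 2.3.3, numpy 2.4.6 and scipy 1.17.1. Cassette exons and gene positions came from GENCODE M21.

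The comparison, the 25 gene lists, the rule for named genes and the alternatives were chosen with earlier results of these data known, so no list is independent evidence. Named were all called mid-range events, the 12 higher and 12 lower called events with the largest moderated t, the 12 and 12 mid-range events with the widest gap, up to 4 members of each list by moderated t with every called member, 6 mid-range events on which the hairpins differed most, and Setd2, Raver2, Aire, Ptbp1 and the histone H3 lysine 36 genes. The text leaves out some events that met the rule and marks those picked outside it, apart from events given only for their difference from Raver2 knockdown or for how their calls depend on the processing; some called events are not reported here, though the counts include them. No set test was run on the lists, which are described by counts and medians. Alternatives were another scale (log-odds limited at 0.01, or arcsine), no variance trend, robust empirical Bayes, the 4 libraries alone, mid-range events alone, genes matched in all 6 libraries, merged repeats, other gaps and each library left out.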

Additional observations from a re-analysis of the deposited data

Results flagged for a closer look

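The events called for Setd2 knockdown against Ctr that also differed from Raver2 knockdown (limma, Setd2 minus Raver2, adjusted over 4676 events) are given here by that difference in inclusion, and no explanation was tested. In the events with the widest differences it was 0.992 for event 1 of 4931409K22Rik, -0.906 for event 3 of Ager, the receptor of advanced glycation products, -0.997 for event 1 and -0.9997 for event 5 of Ank1, and -0.9995 for C87499. C87499 had 0.523 and 0.474 in Ctr, below 0.01 with both Setd2 hairpins and above 0.99 on average under Raver2 knockdown. Event 3 of Ager was above 0.99 in both Ctr libraries, below 0.01 with sh1 and 0.188 with sh2.

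Smaller differences were 0.120 for Dusp16, 0.105 for Egr3, 0.0980 for Ncam1, 0.0512 for Scube1, 0.0414 for event 2 of Tlr7 and 0.0167 for Ranbp3. In Egr3, Ncam1, Scube1 and Tlr7 the Raver2 mean was below 0.01, as were both Ctr libraries. Ank1, Dusp16, Ncam1, C87499, Scube1, Tlr7, Egr3, Ager and 4931409K22Rik each had a library at an end of the scale, and Ranbp3 did not.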

How the results depend on the processing

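No paired analysis was possible because the Ctr libraries carry no hairpin number, so no Ctr library corresponds to sh1 or sh2. The 100 calls became 110 on the log-odds and on the arcsine scale, 88 without a variance trend, 102 with robust empirical Bayes, 104 in genes matched in all 6 libraries and 98 with repeats merged, of which 73, 76, 76, 90, 100 and 95 were among the 100; the balance stayed with more lower than higher events in each. The fit of the 4 libraries alone called 0 events (0 higher, 0 lower), where the fit has fewer libraries to estimate the spread. Mid-range events alone gave 8 calls, 1 higher and 7 lower, with fewer events tested, 7 of them among the 100. Leaving out a library gave 90 to 283 calls, 36 to 97 higher and 54 to 190 lower, and the group left with 1 library is then assumed to vary like the others. Without Ctr library 1 or 2 the calls rose to 283 and 268, and without sh2 the higher events rose to 79; the cause was not tested. The 427 events separated by at least 0.1 became 692 at a gap of at least 0.05, 236 at 0.2, 147 among mid-range events, and 867 to 898 with a library left out, where fewer libraries must be passed.

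The groups overlapped in no called event, so neither another scale nor a library left out could turn its direction. That the 93 called events followed through the alternatives kept their direction is therefore no evidence. Each could be run in at most 12 alternatives, and 24 were called in 10 of them. The calls of Aplp2 event 2, Hdac7 event 4 and Gpm6b event 2 held in only 2 alternatives and those of Exosc5 and Pydc4 in 3; that of Aplp2 was lost on the log-odds and arcsine scales, without a variance trend and with robust fitting (adjusted p = 0.103, 0.0720, 0.0536 and 0.0518). Directions turned only in uncalled events: with a library left out, the change of Brpf1 event 1 ranged from -0.0801 without sh1 to 0.0480 without sh2 (0.00485 without Ctr library 2), that of Dnmt3b event 1 from -0.0782 to 0.00752 without sh1 and sh2, that of Eef1d event 2 from 0.762 without sh1 to -0.0954 without sh2, that of Mtf2 event 1 from 0.0342 without sh1 to -0.0326 without sh2 (-0.00333 without Ctr library 2, and -0.00323 log-odds units on that scale), and that of Tbc1d24 event 4 from -0.247 without sh1 to 0.255 without sh2 (-0.00107 without Ctr library 1). Depth is unknown, so no value could be weighted by the reads behind it.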
